A study of Mus musculus with 9 samples.

Results

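Gene expression was compared between spheroids of 4T1 cells that had been given palmitate and spheroids that had not. The comparison was chosen by its labels, with earlier results of these data known. It uses 6 of the 9 RNA-seq libraries of the series, 3 of 3D cultures with 75 µM palmitate and 3 of 3D cultures without it. Every gene in the deposited table is covered. 4T1 is an established mouse mammary carcinoma line that lacks the oestrogen, progesterone and HER2 receptors and spreads to the lung. The cells grew as spheroids over soft agar for 5 days in RPMI medium with 10% fetal bovine serum, and palmitate coupled to albumin was added on top of the serum, whereas the cultures called no-palmitate here received the carrier alone, so they were not free of fatty acids. The other 3 libraries, of flat 2D cultures with 75 µM palmitate, entered the fit to help estimate the spread between replicates. They also entered the filter on low counts and the scaling, so they had a part in which genes were tested. The labels do not say whether replicates were separate cultures, so the p-values measure the spread between these libraries, which may be technical.

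Palmitate is a saturated fatty acid that cells take from their surroundings, activate to an acyl-CoA and then burn, build into membrane lipids or store as triglyceride. For oxidation it enters mitochondria through the carnitine shuttle, whose entry step is carried out by Cpt1a, and storage takes place in lipid droplets coated with perilipins such as Plin2. Free fatty acids are ligands of the PPAR nuclear receptors, which switch on genes of fat storage and oxidation, and an excess of saturated fatty acid is known to raise stress signalling through the transcription factor ATF4. The question of the comparison was which genes respond when a tumour cell in 3D growth meets more of this fatty acid.

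The 6 libraries were not equally deep or equally alike. Total counts lay between 15293752 and 20785643 in the no-palmitate spheroids and were 27047217, 13451709 and 6595514 in palmitate replicates 1, 2 and 3. On a principal component analysis of log2 CPM (counts of a gene in 1000000 counts of its scaled library), the first component, with 37.2% of the variance, placed palmitate replicate 3 at 32.3 and the other 5 libraries between -12.8 and -0.74. The second component, with 27.1%, held the no-palmitate libraries at 12.02, 12.01 and 12.77 and the palmitate libraries at -16.7, -14.5 and -5.54, so replicate 3 lay on the palmitate side but nearest to the controls. Over 10156 genes, the deviation of a palmitate library from its fellow replicates was related to GC content with a Spearman rho of 0.713 in replicate 1, 0.099 in replicate 2 and -0.656 in replicate 3, a relation across genes, which are not independent replicates. A deviation of more than 0.5 on the log2 scale was seen in 482 genes of replicate 3, in 260 of replicate 1 and in 41 of replicate 2, against 15 to 29 in the no-palmitate libraries. The ribosomal RNA precursor Rn45s took 1.97%, 1.77% and 2.77% of the counts without palmitate and 3.14%, 5.38% and 1.81% with it. The part of depth, GC content and ribosomal RNA in each gene's change was not tested.

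**Figure D1:**
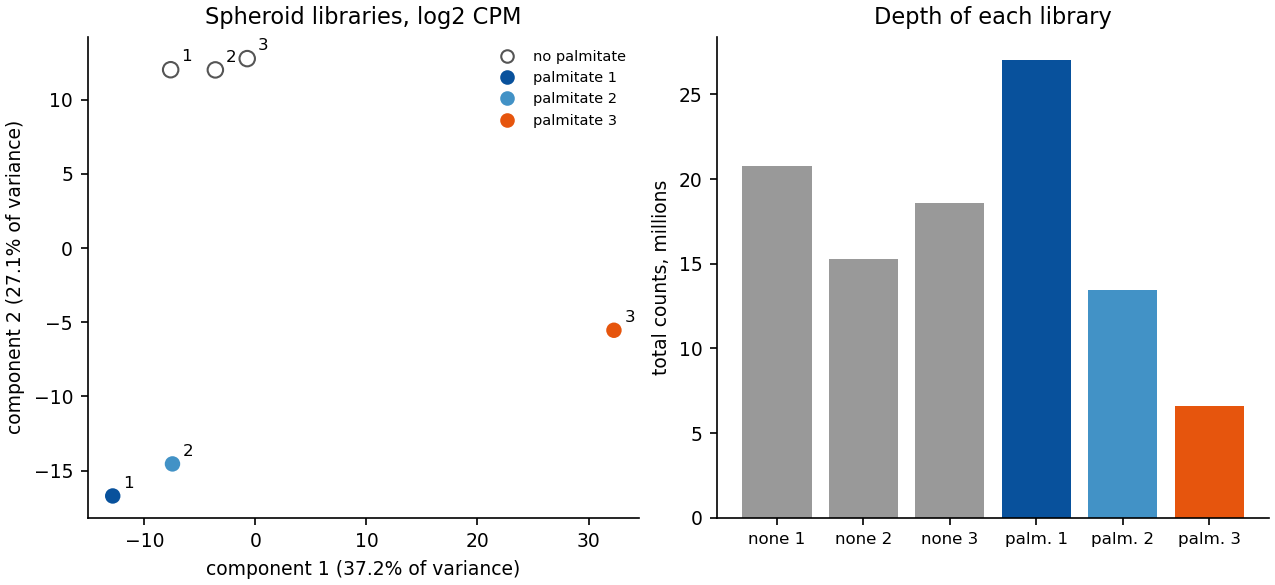
The left panel plots the 6 spheroid libraries on the first 2 principal components of log2 CPM (replicate numbers beside the points), and the right panel plots the total counts of each library as bars. Palmitate replicate 3 stands apart at 32.3 on the first component and is the shallowest library, with 6595514 counts.

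Markers of the tumour epithelium were measured beside those of 4 other cell types. All 10 epithelial markers passed the filter on low counts, and their summed level was 5445, 5532 and 5474 CPM without palmitate and 5546, 5325 and 5259 CPM with it. Of these 10 genes 2 (Krt14 and Esrp1) were called lower with palmitate and none higher (median log2 fold change -0.16). In 6 the palmitate libraries lay entirely below the controls and in 2, Krt8 and Krt18, entirely above. Over all genes tested this was so for 8.19% and 10.4%. Of 8 fibroblast markers 4 passed, with sums of 93.0 to 109 CPM without and 95.0 to 113 CPM with palmitate, of which the growth factor receptor gene Pdgfra made up 90.6 to 105 and 91.7 to 110 CPM. Of 6 endothelial markers 1 passed, the receptor gene Tie1 (log2 fold change 2.30, edgeR adjusted p = 0.062), and the 6 summed to 0.380 to 0.709 CPM without and 0.306 to 1.29 CPM with palmitate. Tie1 had 2, 3 and 1 counts without and 20, 6 and 1 with palmitate. In the flat cultures, which the filter also used, it had 11, 18 and 18. Without replicate 3, 5 epithelial markers were called lower, and Tie1 and the macrophage marker Cd68 higher. The leukocyte markers summed to 7.17 to 9.02 CPM without and 8.88 to 11.6 CPM with palmitate, of which Cd68 made up 6.18 to 8.41 and 7.81 to 11.1 CPM. The leukocyte marker Ptprc had counts in all 6 libraries, at 0.425 to 0.597 CPM without and 0.258 to 0.613 CPM with palmitate. Of 8 fibroblast markers 3 and of 8 leukocyte markers 4 were at 0 in all 6 libraries, among them Col3a1, Lum, Adgre1 and Cd3e. No adipocyte marker passed the filter, and their sum stayed under 1 CPM in every spheroid library.

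Of 12575 genes tested, 275 differed between the spheroids with and without palmitate at an adjusted p-value under 0.05, which is 2.19% of them. The p-values come from the quasi-likelihood test of edgeR and were adjusted by the Benjamini-Hochberg method. With palmitate 173 genes rose (1.38%) and 102 fell (0.811%), and the median of all genes moved by 0.01 on the log2 scale. When libraries were scaled by their totals alone, 106 genes rose and 121 fell, so the excess of genes that rose depended on the scaling. The changes were small. The median log2 fold change of genes that rose was 0.45, with 17 genes changed by 2-fold or more and 112 by less than 1.5-fold. The median of genes that fell was -0.46, with 3 genes changed by 2-fold or more and 73 by less than 1.5-fold. The 3 libraries of one group lay entirely above the 3 of the other in 171 of the 173 genes that rose and in all 102 that fell, while over all genes this was so for 10.4% in the higher and 8.19% in the lower direction.

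The number of calls rested on palmitate replicate 3 more than on any other library. Without it 1901 genes were called, 1095 higher (8.56% of 12787 tested) and 806 lower (6.3%), and all 275 genes were among them. Leaving out any one of the other 5 spheroid libraries gave 71 to 148 calls. With the 6 spheroid libraries filtered and fitted alone, without the flat cultures, 77 of 12243 genes tested were called. With counts thinned to the total of replicate 3 there were 113 calls, and with the Rn45s share of each library as a covariate 50. Of the 275 genes, 33 that rose and 20 that fell stayed called whichever spheroid library was left out, and 81 that rose and 47 that fell lost their call with each of the 5 other libraries left out. The genes below that are said to have kept their call did so in all 6 of these fits. Beside the count of each list stands that without replicate 3, over the members tested with all libraries, to be read against the 8.56% and 6.3% above.

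**Figure D2:**
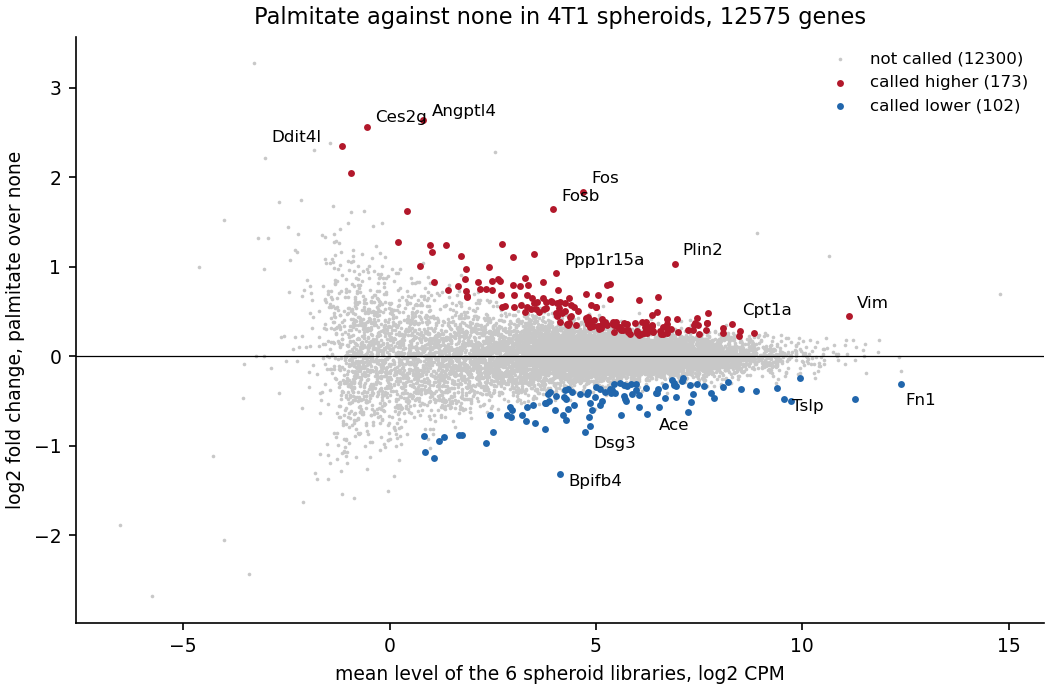
Each point is 1 of 12575 genes, with the mean level of the 6 spheroid libraries in log2 CPM on the horizontal axis and the log2 fold change of palmitate over none on the vertical axis. The 173 genes called higher (red) and 102 called lower (blue) lie mostly within 1 log2 unit of no change, with Angptl4, Ces2g and Ddit4l at the top and Bpifb4 at the bottom.

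Among the genes that rose were several of fat storage. Plin2, the perilipin that coats newly formed lipid droplets and the gene with the smallest p of all, stood at 79.4, 77.1 and 79.7 CPM without palmitate and at 167, 166 and 150 CPM with it (values here and below in the order of replicates 1 to 3). The groups were far apart, and the log2 fold change was 1.03 ± 0.06 (SE, n = 3 per group, edgeR adjusted p = 1.40e-06). Angptl4, a secreted inhibitor of lipoprotein lipase and a classical PPAR target, went from 0.47, 0.45 and 0.54 CPM to 2.94, 3.57 and 2.60 CPM, a log2 fold change of 2.64 ± 0.24 (edgeR adjusted p = 9.72e-05). Its counts were only 10, 7 and 10 without and 80, 47 and 17 with palmitate, yet both genes kept their call, and replicate 3 lay near its fellow replicates in both. Hsd17b11, a lipid droplet dehydrogenase, rose from 29.3, 31.7 and 32.7 CPM to 44.8, 47.9 and 54.8 CPM, and Nceh1, which hydrolyses neutral cholesterol esters, from 74.4, 71.5 and 76.7 CPM to 99.5, 105 and 109 CPM. Both also kept their call (log2 fold changes 0.64 ± 0.08 and 0.49 ± 0.07, edgeR adjusted p = 0.00105 and 0.00178), and in both replicate 3 was the highest library. Ces2g, a carboxylesterase, had a fitted log2 fold change of 2.57 that rests on 9, 0 and 2 counts against 35, 14 and 8.

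Of the list of PPAR targets, 9 of 28 tested members rose and none fell, with a median log2 fold change of 0.15 over the list. Plin2 and Angptl4 kept their call, and the other 7 (Cpt1a, Acot1, Acot2, Acadl, Slc25a20, Ucp2 and Acaa2) did not. The list of lipid droplet and triglyceride turnover had 4 of 31 members higher (median 0.09). Without replicate 3, 12 PPAR targets and 8 genes of the droplet list were called higher and none lower.

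Genes of mitochondrial oxidation were also among those that rose. Cpt1a, which makes acylcarnitines at the outer mitochondrial membrane, was at 269, 266 and 285 CPM without palmitate and at 343, 354 and 358 CPM with it, groups that did not overlap and differed by a log2 fold change of 0.36 ± 0.06 (edgeR adjusted p = 0.00667). Its call was lost when no-palmitate replicate 2 was left out (log2 fold change 0.34, edgeR adjusted p = 0.0521; 0.00111 to 0.0521 over the 6 fits that left out a spheroid library). Cpt2, its partner at the inner membrane, rose from 32.7, 29.4 and 31.8 CPM to 41.9, 38.3 and 43.2 CPM (0.39 ± 0.08, edgeR adjusted p = 0.0182), and Slc25a20, the carnitine carrier between them, from 14.6, 12.7 and 15.5 CPM to 21.0, 18.3 and 18.2 CPM (0.44 ± 0.10, edgeR adjusted p = 0.0357). Together with Acadl and Acaa2, enzymes of the beta-oxidation spiral, these made 5 of 40 tested members of the oxidation list that rose, against none that fell, with a median of 0.08. None of the 5 kept its call in all 6 fits, and without replicate 3 there were 9 called higher and none lower.

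In the list of fatty acid uptake and activation 3 of 34 members rose and none fell (median 0.04), against 6 higher and 3 lower without replicate 3. The 3 were Acsbg1, an acyl-CoA synthetase gene that went from 151, 150 and 146 CPM to 216, 206 and 177 CPM (0.43 ± 0.07, edgeR adjusted p = 0.0077), and the thioesterases Acot1 and Acot2. Acot1 stood at 2.31, 2.58 and 2.50 CPM without and 5.04, 4.86 and 4.29 CPM with palmitate, and Acot2 at 5.76, 4.01 and 4.23 CPM without and 9.64, 7.22 and 7.66 CPM with it. These neighbours on chromosome 12 are near-identical, so 50-base reads may have been split between them and their separate values are uncertain.

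No member of the list of sterol and fatty acid synthesis under SREBP, the factor that responds to low membrane sterol, passed the test among 50 (median -0.02), and without replicate 3 there were 3 called higher and 3 lower. By unadjusted p, Fads3 (a desaturase family member) and Hmgcs1, an early enzyme of cholesterol synthesis, came nearest. Hmgcs1 was at 230, 282 and 285 CPM without and 204, 213 and 251 CPM with palmitate, which overlap (log2 fold change -0.26 ± 0.09, edgeR adjusted p = 0.154). The desaturase gene Scd1 (0.02 ± 0.14) had no consistent direction over the alternatives. The list of ceramide and sphingolipid metabolism had 1 of 35 members called, the lysosomal hexosaminidase subunit Hexa (0.39 ± 0.09), against 1 higher and 3 lower without replicate 3.

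Genes of the integrated stress response gave the most calls of any list, with 24.6% of tested members higher against 1.38% of all genes tested. PPAR targets had the larger share, 32.1%. The lists were chosen with earlier results of these data known. The integrated stress response slows general translation by phosphorylation of eIF2alpha while the factor ATF4 switches on amino acid supply, tRNA charging and redox genes. Of 65 tested members 16 rose and none fell, with a median of 0.20 on the log2 scale, and the list's median difference from the controls was 0.21, 0.21 and 0.17 in palmitate replicates 1, 2 and 3. Without replicate 3, 32 members were called higher and 1 lower. Ppp1r15a, whose product restores translation by recruiting a phosphatase to eIF2alpha, was at 11.5, 11.6 and 10.5 CPM without and 21.4, 20.3 and 23.0 CPM with palmitate (0.93 ± 0.08, edgeR adjusted p = 9.72e-05). Chac1, which degrades glutathione, went from 16.5, 16.3 and 15.0 CPM to 25.9, 26.7 and 20.8 CPM (0.65 ± 0.09, edgeR adjusted p = 0.00178). Ppp1r15a and Chac1 kept their call, while the other 14 lost it in at least 1 of the 6 fits.

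Among those 14, the transcription factor Atf3 stood at 12.3, 9.05 and 9.60 CPM without and 16.2, 17.5 and 14.9 CPM with palmitate (0.65 ± 0.12, edgeR adjusted p = 0.0105), and Sesn2, a leucine sensor upstream of mTORC1, at 10.1, 8.21 and 7.54 CPM against 14.4, 13.4 and 12.4 CPM (0.65 ± 0.12, edgeR adjusted p = 0.0126). The tRNA synthetase genes Aars, Wars and Yars rose by log2 fold changes of 0.23, 0.33 and 0.24, Asns, the asparagine synthetase gene, by 0.35 and Pck2 by 0.36. The level of Atf4 itself was 294, 266 and 269 CPM without and 313, 330 and 312 CPM with palmitate, which do not overlap but did not pass the test (0.20 ± 0.06, edgeR adjusted p = 0.115). Trib3, a pseudokinase gene induced by ATF4, was at 54.3, 41.7 and 45.5 CPM against 65.0, 65.1 and 48.5 CPM, so replicate 3 lay within the control range there (edgeR adjusted p = 0.109).

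Of 38 tested genes of chaperones and quality control in the endoplasmic reticulum, 1 rose, Herpud1, a component of the degradation machinery of that organelle (45.9, 41.7 and 45.3 CPM against 57.9, 53.02 and 50.4 CPM, edgeR adjusted p = 0.0478), and 1 fell, Crebrf (47.3, 41.5 and 46.3 CPM against 32.2, 34.2 and 40.0 CPM, edgeR adjusted p = 0.0419). The chaperone gene Hspa5, the usual marker of this response, was at 2496, 2353 and 2419 CPM without and 2427, 2547 and 2811 CPM with palmitate, with overlap (0.10 ± 0.06, edgeR adjusted p = 0.446). Without replicate 3, 9 of the 38 genes were called higher and 2 lower.

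ATF4 binds DNA with C/EBP partners at a composite element, searched here as TGATGNAA on both strands of the 300 bases around each start site in RefSeq (250 before and 50 after). It was present in 8 of 143 genes that rose and had a promoter in the table (5.59%), in 0 of 69 that fell, and in 265 of 9970 tested genes (2.66%). The 8 genes were Chac1, Atf3, Herpud1, Asns, Pck2, Aars, Yars and Chchd10. The windows of Chac1, Atf3 and Herpud1 are shown because the naming rule given below took these 3 genes and they hold the element. Those of the other genes with the element are not shown. The windows come from RefSeq GRCm38.p6, 5′ to 3′ along each gene, with the match in capitals. The match begins 193 bases before the start in Chac1, 110 in Atf3 and 112 in Herpud1, and in each it reads on the opposite strand. A match is a description of the letters and no measurement of binding.
Chac1 (chr2:119350992-119351291, plus strand): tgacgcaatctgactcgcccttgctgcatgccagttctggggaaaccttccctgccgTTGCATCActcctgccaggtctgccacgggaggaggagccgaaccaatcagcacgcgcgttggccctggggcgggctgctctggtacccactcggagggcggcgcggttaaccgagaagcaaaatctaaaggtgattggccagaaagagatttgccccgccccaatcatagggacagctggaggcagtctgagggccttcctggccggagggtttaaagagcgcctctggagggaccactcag
Atf3 (chr1:191183284-191183583, minus strand): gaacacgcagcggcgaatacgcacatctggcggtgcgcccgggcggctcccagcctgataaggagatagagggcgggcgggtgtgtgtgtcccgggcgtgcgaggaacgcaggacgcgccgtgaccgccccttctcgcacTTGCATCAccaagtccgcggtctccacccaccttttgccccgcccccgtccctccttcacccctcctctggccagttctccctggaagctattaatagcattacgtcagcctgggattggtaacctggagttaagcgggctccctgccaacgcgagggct
Herpud1 (chr8:94386179-94386478, plus strand): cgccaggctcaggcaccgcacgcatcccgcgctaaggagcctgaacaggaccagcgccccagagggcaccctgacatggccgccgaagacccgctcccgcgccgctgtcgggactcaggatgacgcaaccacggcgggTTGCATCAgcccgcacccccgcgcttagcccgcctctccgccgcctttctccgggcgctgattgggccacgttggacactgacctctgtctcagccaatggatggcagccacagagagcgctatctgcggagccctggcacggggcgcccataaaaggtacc

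The repeat AGGTCANAGGTCA that PPAR and its partner RXR bind was in 0 of the 143 genes that rose with a promoter in the table and in 4 of 9970 tested genes, so this short window says nothing about the PPAR targets. The AP-1 site TGANTCA was in 9.79% of genes that rose, 10.1% of those that fell and 6.56% of all tested, and the cyclic AMP element TGACGTCA was in 3.50%, 0 and 3.67%. The hypoxia core ACGTG was in 38.5%, 20.3% and 29.5%, and the sterol element TCACNCCAC in 2.80%, 4.35% and 1.36%.

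The list of amino acid and one-carbon supply shares genes with the stress list. In it 8 of 43 tested members rose and none fell, with a median of 0.15, and without replicate 3 there were 17 called higher and none lower. Ddah1, which degrades methylated arginine, went from 17.8, 17.6 and 18.6 CPM to 25.2, 26.2 and 28.3 CPM (0.55 ± 0.08, edgeR adjusted p = 0.00296) and kept its call. The glutamine and neutral amino acid transporter gene Slc1a5 rose by 0.41 ± 0.08, the mitochondrial serine hydroxymethyltransferase gene Shmt2 by 0.37 ± 0.07 and the alanine aminotransferase gene Gpt2 by 0.36 ± 0.07. Psat1, Asns, Mthfd2 and Aldh18a1 completed the 8. In Slc1a5 replicate 3 was the lowest palmitate library, with 105 CPM against 133 and 121 CPM, but it still lay above the highest control, at 95.2 CPM.

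The immediate early genes, which encode short-lived AP-1 factors and their feedback phosphatases, included large changes of unequal size between replicates. Fos was at 9.07, 11.6 and 13.8 CPM without and 55.5, 27.3 and 37.1 CPM with palmitate (1.84 ± 0.23, edgeR adjusted p = 0.00092), and its relative Fosb at 7.42, 8.40 and 8.03 CPM against 34.4, 19.9 and 15.2 CPM (1.64 ± 0.22, edgeR adjusted p = 0.00174). Replicate 1 was the highest in both. Ctgf and Cyr61, matricellular proteins made under YAP and serum response factor, rose from 10.5, 8.59 and 9.28 CPM to 17.1, 18.3 and 14.5 CPM and from 29.3, 33.0 and 28.0 CPM to 60.6, 49.7 and 44.6 CPM (log2 fold changes 0.83 ± 0.10 and 0.81 ± 0.10). These 4 genes kept their call, and Dusp1, Dusp5 and Atf3 brought the count to 7 of 40 tested members, with none lower, and to 16 without replicate 3. Amotl2, another gene induced by YAP that was outside the rule and chosen after its values were seen, rose from 22.5, 24.4 and 24.8 CPM to 37.7, 34.7 and 32.9 CPM. The median of the list differed by library, at 0.32 in replicate 1, 0.09 in replicate 2 and -0.02 in replicate 3.

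Of the list of hypoxia and glycolysis, 6 of 48 members rose and none fell (median 0.18, and 0.19, 0.19 and 0.16 in the 3 palmitate libraries), and without replicate 3 there were 23 called higher and none lower. Car12, a membrane carbonic anhydrase, went from 23.9, 27.8 and 26.5 CPM to 38.1, 37.4 and 38.6 CPM (0.55 ± 0.08, edgeR adjusted p = 0.00185), with hardly any spread between the palmitate libraries, and kept its call as did Angptl4, which this list shares. The oxygen sensor gene Egln3 (0.29 ± 0.06), the collagen hydroxylase gene P4ha2 (0.53 ± 0.11), Stc2 and Ak4 were the others. Vegfa was at 93.1, 82.5 and 82.2 CPM without and 99.9, 99.97 and 100.3 CPM with palmitate and did not pass (0.22 ± 0.07, edgeR adjusted p = 0.102).

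Hmox1, haem oxygenase, rose from 26.6, 23.3 and 26.4 CPM to 43.2, 42.0 and 35.8 CPM (0.68 ± 0.08, edgeR adjusted p = 0.000918) and kept its call, and it was joined by the transporter gene Abcc4 as 2 of 49 members of the NRF2 list (median 0.10). Without replicate 3, 17 of the 49 were called higher and 2 lower. In the list of metallothioneins, zinc and iron 3 of 27 rose, namely Hmox1, the metalloreductase gene Steap1 (0.60 ± 0.09) and the iron transporter gene Slc11a2 (0.33 ± 0.08), against 10 higher and 1 lower without replicate 3. Of 33 heat shock genes none passed the test, against 3 higher and 2 lower without replicate 3, and the nearest by p were Cct3 (0.19, edgeR adjusted p = 0.0793) and Ahsa1 (0.21, edgeR adjusted p = 0.086). In the list of cell death and p53 3 of 41 rose, the kinase gene Plk2 (0.38 ± 0.07), the death receptor gene Tnfrsf21 (0.41 ± 0.08) and Sesn2, and in that of lysosome and autophagy 2 of 51, Ctsb and Hexa. Without replicate 3 there were 11 higher and 3 lower in the former list and 6 higher and 1 lower in the latter.

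Inflammatory genes moved in both directions. Il1a, an alarmin cytokine, stood at 71.0, 66.7 and 72.5 CPM without and 101, 110 and 125 CPM with palmitate (0.66 ± 0.07, edgeR adjusted p = 0.00067), with replicate 3 the highest. The called gene Gm14023 overlaps it, and since the strand setting of the counting is not given in the sources used here, reads of the pair cannot be told apart. Tslp, a cytokine of epithelia, fell from 904, 860 and 861 CPM to 600, 594 and 700 CPM (-0.47 ± 0.07, edgeR adjusted p = 0.00305). Both kept their call. With Nfkbiz (0.28 ± 0.06) and Tnfaip2 (0.31 ± 0.06), 3 of 66 tested members of the list of TNF and NF-kB response rose and 1 fell (median 0.14), against 12 higher and 3 lower without replicate 3. Nfkbiz and Tnfaip2 lost their call in 5 of the 6 fits that left out a spheroid library. Nfkbia, the inhibitor gene that NF-kB itself induces, was at 70.5, 67.7 and 73.3 CPM against 91.4, 77.1 and 83.2 CPM and did not pass (0.26 ± 0.08, edgeR adjusted p = 0.108). Among 48 interferon-stimulated and MHC class I genes, Oasl1 (6.85, 6.91 and 7.11 CPM against 12.7, 14.3 and 10.6 CPM, edgeR adjusted p = 0.00092) and Ifit1 rose, against 7 higher and 3 lower without replicate 3.

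The genes for p65 and for the acetyltransferase Kat2a did not pass the test at the RNA level. Rela, which encodes p65, was at 112, 119 and 113 CPM without and 133, 119 and 105 CPM with palmitate (0.06 ± 0.08, edgeR adjusted p = 0.734). Kat2a was at 96.9, 104 and 98.5 CPM without and 126, 109 and 93.6 CPM with palmitate, so replicates 1 and 2 lay above all controls and replicate 3 below them (0.15 ± 0.09, edgeR adjusted p = 0.393). Without replicate 3 the log2 fold change of Kat2a was 0.24 (edgeR adjusted p = 0.0202), and over its 23 alternatives the adjusted p ranged from 0.0202 to 0.897, under the threshold in 2. Of 43 tested members of a list of lysine acetyltransferases, deacetylases and other genes none was called (median -0.04), against 2 higher and 6 lower without replicate 3. The nearest members by p were Atat1 (-0.33) and Noa1 (0.28).

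The list of ribosome assembly had small positive medians in all 3 palmitate libraries. Of 103 tested members of a list written after results had been seen, 8 rose and none fell. A fitted change above 0 was found in 94, against 6564 of all 12575 genes. In 36 the palmitate libraries lay entirely above the controls and in 0 entirely below, against 10.4% and 8.19% of all genes. Since the list followed the results, these counts are a description only. The 8 were Pno1, Nol10, Nop9, Rrp9, Bysl, Ppan, Cirh1a and Rrs1, of which Pno1, a factor of the small subunit, went from 65.4, 64.5 and 64.2 CPM to 82.3, 78.6 and 81.8 CPM (0.32 ± 0.06, edgeR adjusted p = 0.0146). None kept its call in all 6 fits, and without replicate 3 there were 24 called higher and none lower. The list was highest in replicate 3, with a median difference of 0.17 against 0.07 and 0.09 in replicates 1 and 2.

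The proteins of the ribosome and of the respiratory chain showed the opposite order between libraries. None of 77 tested cytosolic ribosomal protein genes was called, with medians of 0.20, 0.14 and -0.06 in replicates 1, 2 and 3, and without replicate 3 there were 29 called higher and 1 lower. None of 75 genes of oxidative phosphorylation was called, with medians of 0.19, 0.13 and -0.04, and without replicate 3 there were 28 called higher. The deviation of a palmitate library from its fellows was related to transcript length with a Spearman rho of -0.368, -0.155 and 0.378 in replicates 1, 2 and 3, and the part of length in this order was not tested. The complex I gene Ndufs7 shows the order, with 28.6, 31.01 and 29.6 CPM without and 47.4, 38.3 and 31.5 CPM with palmitate (edgeR adjusted p = 0.0793). The nearest ribosomal protein genes by p, Rpl14 and Rpsa, had log2 fold changes of 0.20 and 0.18. Among cell cycle genes, 1 of 54 of DNA replication rose, the ribonucleotide reductase gene Rrm2 (170, 186 and 183 CPM against 243, 233 and 219 CPM, edgeR adjusted p = 0.00711), and none of 57 of mitosis, of which Aurka and Birc5 came nearest (0.21 and 0.18). Without replicate 3 there were 10 higher and 1 lower in the former list and 9 higher and 9 lower in the latter.

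**Figure D3:**
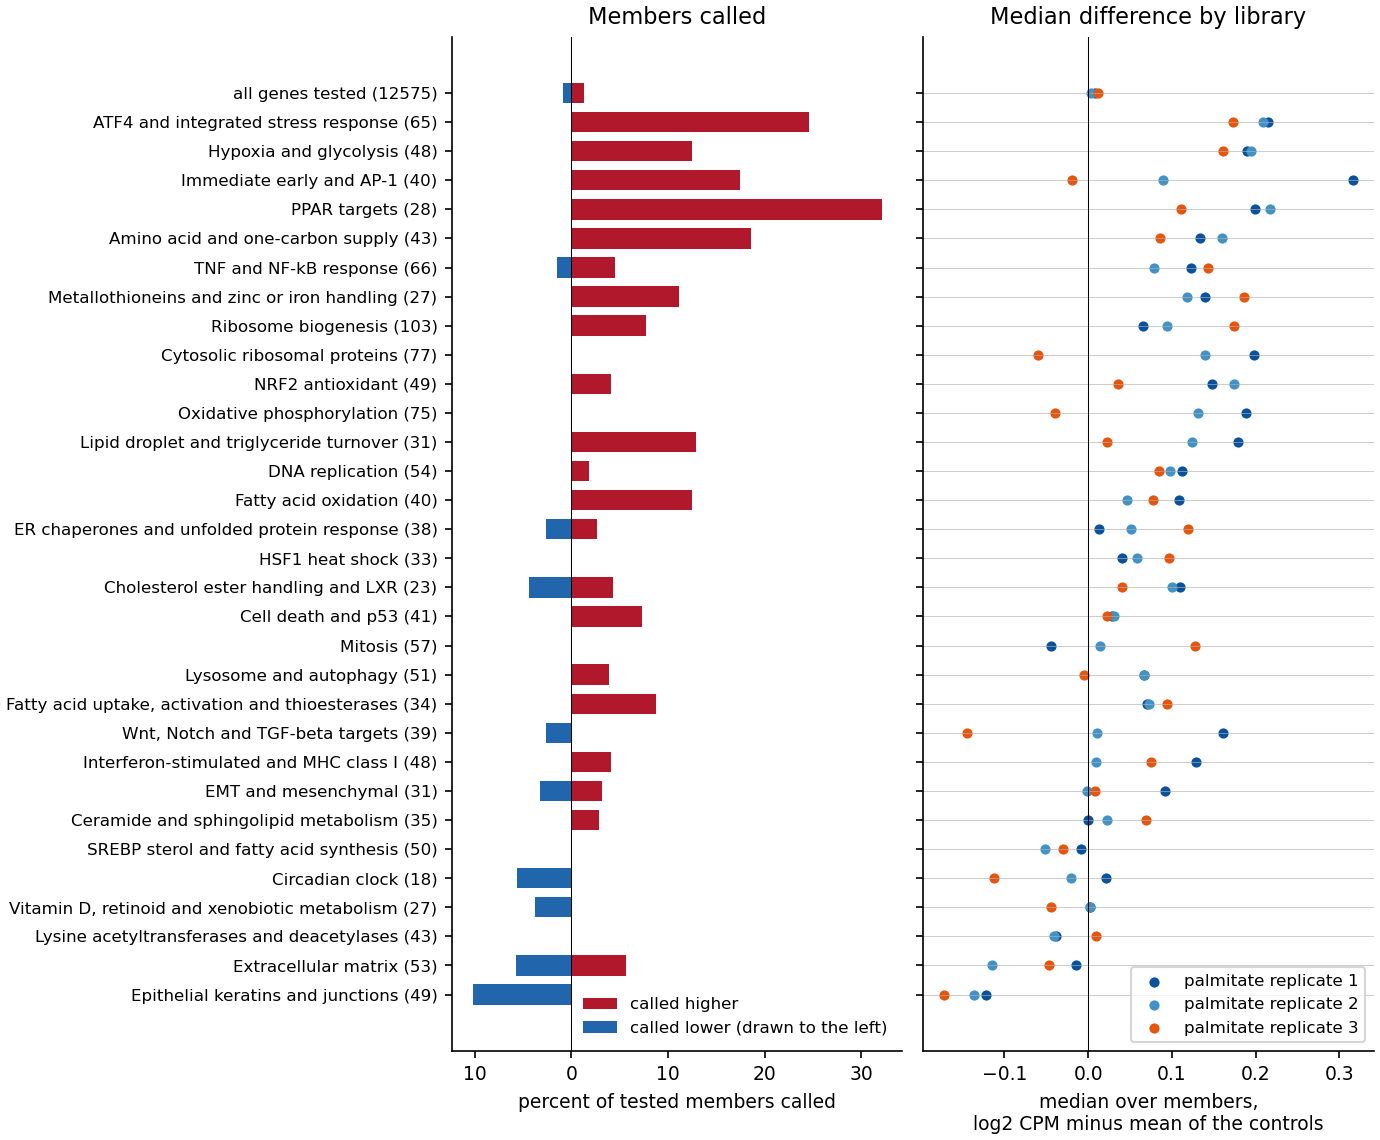
For each pathway list (tested members in parentheses, cell type marker lists not drawn) the left panel shows the percent of members called higher (red, to the right) or lower (blue, drawn to the left), and the right panel the median over members of log2 CPM minus the mean of the controls in each palmitate library. PPAR targets, the ATF4 list and the amino acid list hold the highest shares called of the lists drawn. Replicate 3 (orange) lies below 0 and the other palmitate libraries above it in the lists of ribosomal proteins, oxidative phosphorylation and immediate early genes. The same holds for the lists of Wnt, Notch and TGF-beta, of lysosome and autophagy and of vitamin D.

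Outside the lists, Prickle1, a planar polarity gene, rose from 3.78, 3.75 and 4.34 CPM to 10.3, 8.81 and 8.58 CPM (1.25 ± 0.12, edgeR adjusted p = 0.000143). AU018091 rose from 5.48, 5.36 and 4.50 CPM to 11.998, 10.8 and 9.19 CPM (1.10 ± 0.13), and Ankrd33b from 13.3, 12.6 and 12.04 CPM to 20.4, 22.8 and 20.2 CPM (0.74 ± 0.09). All of these kept their call. Larger folds at low levels were seen in Fbp2, a fructose bisphosphatase of muscle (0.61, 0.58 and 0.81 CPM against 2.098, 2.35 and 1.53 CPM), in the integrin subunit gene Itgb7 (1.51, 1.49 and 1.79 CPM against 4.20, 3.80 and 2.60 CPM) and in Mettl7b, a lipid droplet methyltransferase (0.57, 0.97 and 0.60 CPM against 1.99, 1.22 and 1.53 CPM). Only Itgb7 of these 3 kept its call.

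Bpifb4, a secreted protein of the lipid-binding BPI family, dropped from 23.3, 28.4 and 24.6 CPM to 11.7, 9.19 and 8.58 CPM (-1.31 ± 0.13, edgeR adjusted p = 0.000143). This was the largest fall among called genes with a mean of at least 1 CPM, and replicate 3 was the lowest library. Ace, angiotensin-converting enzyme, fell from 87.2, 90.5 and 96.0 CPM to 59.7, 54.8 and 61.1 CPM (-0.64 ± 0.07, edgeR adjusted p = 0.000699). Prom2, a pentaspan protein of membrane protrusions, fell from 183, 185 and 176 CPM to 127, 121 and 103 CPM (-0.62 ± 0.07, edgeR adjusted p = 0.000823). The rule for genes of small p took only genes without overlap, so no palmitate library reached a control library here. All 3 genes kept their call.

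The other genes that fell and were named for a small p were also taken only if the groups did not overlap. Mal, a lipid raft protein of apical transport, was at 112, 115 and 103 CPM without and 70.9, 73.2 and 80.1 CPM with palmitate (-0.57 ± 0.07). Myh14, a nonmuscle myosin of epithelia, was at 62.5, 60.6 and 57.4 CPM against 40.9, 38.7 and 33.2 CPM (-0.66 ± 0.08). The carrier of fibroblast growth factors Fgfbp1 (-0.50 ± 0.07), the calpain gene Capn5 (-0.60 ± 0.08), the membrane contact protein gene Esyt3 (-0.57 ± 0.08) and the adaptor gene Sh2d4a (-0.55 ± 0.08) fell as well, each with an edgeR adjusted p between 0.00122 and 0.00296. All 6 kept their call.

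**Figure D4:**
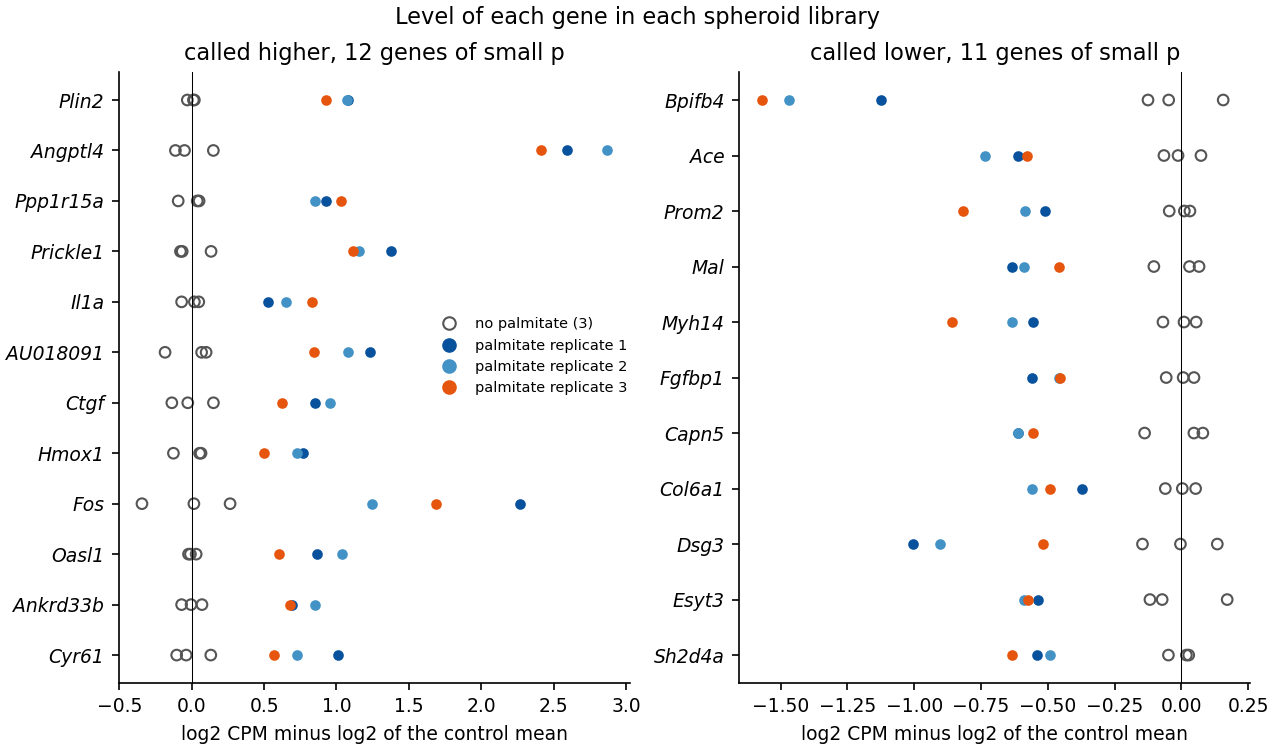
Levels of the 12 genes called higher (left) and 11 called lower (right) that were named for a small p and no overlap, as log2 CPM minus the log2 of the control mean. Open circles are the 3 no-palmitate libraries and filled circles the palmitate replicates, and no filled circle reaches the open ones, with Angptl4 and Fos farthest to the right and Bpifb4 farthest to the left.

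Of the pathway lists, that of keratins and junctions alone held more than 1 called gene with all of them lower. Of 49 tested members 5 fell and none rose (median -0.12), and in 23 the palmitate libraries lay entirely below the controls, against 4 entirely above. The shares over all genes tested were 8.19% entirely below and 10.4% entirely above. Without replicate 3, 14 members were called lower and 3 higher. Dsg3, a desmosomal cadherin, fell from 30.3, 33.5 and 36.8 CPM to 16.7, 17.9 and 23.4 CPM (-0.84 ± 0.12, edgeR adjusted p = 0.00243), and Krt14, a basal keratin, from 185, 197 and 174 CPM to 144, 130 and 112 CPM (-0.52 ± 0.08, edgeR adjusted p = 0.00517). Esrp1, an epithelial splicing regulator, fell from 97.4, 108 and 100 CPM to 78.1, 79.2 and 70.9 CPM (-0.41 ± 0.07, edgeR adjusted p = 0.00705), a call that was lost without no-palmitate replicate 2 (log2 fold change -0.37, edgeR adjusted p = 0.0521; 0.00182 to 0.0521 over the same 6 fits). Prom2 and the plakophilin gene Pkp1 were the others, and Krt14, Dsg3 and Prom2 kept their call. The adhesion gene Epcam, at 831, 804 and 834 CPM without and 672, 701 and 749 CPM with palmitate, did not overlap but missed the threshold (-0.22 ± 0.06, edgeR adjusted p = 0.0664), as did the epithelial factor gene Grhl2 (-0.25 ± 0.07, edgeR adjusted p = 0.0599). The simple keratin genes Krt8 and Krt18 lay entirely above the controls, with log2 fold changes of 0.08 and 0.08, and did not pass (edgeR adjusted p = 0.543 and 0.534).

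Vimentin and fibronectin, which are often read together, went opposite ways. Vim, the intermediate filament of mesenchymal cells, rose from 1980, 1834 and 1861 CPM to 2820, 2602 and 2318 CPM (0.45 ± 0.07, edgeR adjusted p = 0.00599) and kept its call, while Fn1 fell from 6003, 5752 and 6100 CPM to 4572, 4662 and 5137 CPM (-0.31 ± 0.07, edgeR adjusted p = 0.0337) and did not keep it. They were the only called genes among 31 of the mesenchymal list (median 0.02), against 2 higher and 3 lower without replicate 3. Of 53 extracellular matrix genes 3 rose and 3 fell (median -0.07), against 6 higher and 9 lower without replicate 3. The collagen genes Col5a1 (0.37 ± 0.07) and Col8a1 (0.35 ± 0.08) and the protease inhibitor gene Timp1 (0.29 ± 0.07) rose, and Col6a1 (-0.47 ± 0.07), the tenascin gene Tnxb (-0.66 ± 0.12) and Fn1 fell, of which Col6a1 kept its call.

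Single receptors and regulators were called lower in several lists, against 0.811% of all genes tested. Notch3 was at 13.1, 22.0 and 17.6 CPM without and 11.5, 8.66 and 8.58 CPM with palmitate (-0.81 ± 0.17, edgeR adjusted p = 0.0273), as 1 of 39 genes of Wnt, Notch and TGF-beta, and Notch1 missed the threshold (-0.28, edgeR adjusted p = 0.0574). The vitamin D receptor gene Vdr (-0.40 ± 0.09) was 1 of 27 in its list, the clock gene Per3 (-0.42 ± 0.09) 1 of 18, and Tef (-0.28, edgeR adjusted p = 0.0526) came near in the latter. Notch3, Vdr and Per3 did not keep their call. Mylip, a ubiquitin ligase and a target of the sterol receptor LXR, fell from 10.7, 11.4 and 12.1 CPM to 7.69, 7.06 and 6.59 CPM (-0.65 ± 0.11, edgeR adjusted p = 0.00667) and kept its call, and it and Nceh1 were the called genes of 23 in the cholesterol ester list. Without replicate 3 the calls were 2 higher and 4 lower in the list of Wnt, Notch and TGF-beta, 2 lower in that of vitamin D, 2 higher and 3 lower in that of the clock and 3 higher and 2 lower in that of cholesterol esters. At low levels, Gabrp, a GABA receptor subunit (5.39, 6.98 and 7.49 CPM against 3.35, 3.04 and 3.98 CPM), the sodium channel gene Scn3a (4.49, 4.52 and 3.69 CPM against 2.58, 2.13 and 1.68 CPM) and the epidermal differentiation factor gene Zfp750 (2.55, 2.46 and 3.47 CPM against 1.07, 1.52 and 1.53 CPM) fell by log2 fold changes of -0.96, -0.88 and -1.14, and Atp6v0a4, Izumo4 and Rp1l1 by -1.07, -0.95 and -0.91. None of these 6 kept its call.

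The nuclear long noncoding RNAs Malat1 and Neat1 also fell, and were named after their values were seen. Malat1 was at 3541, 2561 and 2512 CPM without and 1953, 2286 and 1927 CPM with palmitate (-0.48 ± 0.11, edgeR adjusted p = 0.0394), and Neat1 at 1165, 973 and 840 CPM against 737, 757 and 617 CPM (-0.50 ± 0.11, edgeR adjusted p = 0.0398). No-palmitate replicate 1 was the highest library in both, and neither kept its call. They lie 22036 bases apart on chromosome 19.

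The depth of palmitate replicate 3 could be set against its levels in the called genes. Among the 173 genes that rose it showed the smallest change of the 3 palmitate libraries in 106, with a median difference from the controls of 0.37 against 0.51 and 0.44 on the log2 scale in replicates 1 and 2. Among the 102 that fell it was the smallest in 54, with 0.43 against 0.50 and 0.43. These genes were called with replicate 3 in the fit, so its side was partly fixed by the choice. It lay nearest to the controls in Sema6b (16.3, 14.9 and 15.8 CPM against 27.8, 24.2 and 16.1 CPM), Prr7 (2.98, 3.75 and 3.42 CPM against 7.32, 5.24 and 3.68 CPM) and Hmga1 (7.32, 6.53 and 6.73 CPM against 14.8, 10.9 and 7.50 CPM), and farthest beyond its fellows in Col8a1, Cspg4 and Nrbp2. Only 3 genes that rose and 3 that fell had under 10 counts in it.

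Choosing genes without the library that was then read removed that dependence. The position of the left-out library was scaled so that 0 is the mean of the controls and 1 the mean of the other palmitate libraries. For 148 genes called without replicate 1 its median position was 0.902, with 98.6% of genes on the same side of the controls, and for 78 called without replicate 2 it was 0.929, with 98.7%. For 1898 genes with a value among the 1901 called without replicate 3, the median position of replicate 3 was 0.099 (quartiles -0.300 and 0.563), with 55.6% on the same side and 28.4% at 0.5 or more. An alternative added later removed the dependence of every library on GC content and on transcript length. With it the median position of replicate 3 was 0.420 and 74.1% of 1963 genes were on the same side, while replicates 1 and 2 were at 0.904 and 0.941. Most of the genes called without replicate 3 were thus not seen in replicate 3 at the size they had in the other palmitate libraries. Plin2 and Angptl4 stood there at 0.862 and 0.877, but they were named for a small p in the fit that included replicate 3. The fits without replicates 1 and 2 still held replicate 3, so the 3 sets of genes were not chosen alike. Each position is also divided by the difference that chose the gene, which favours values under 1.

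**Figure D5:**
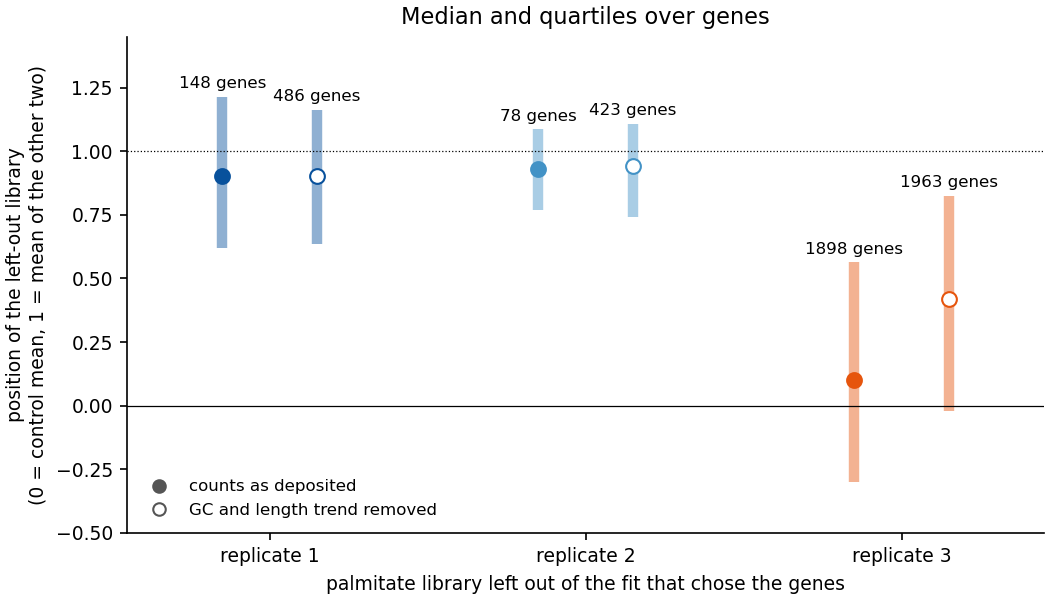
For each palmitate library, genes were called without it, and the point gives the median and the bar the quartiles of that library's own position in those genes, where 0 is the control mean and 1 the mean of the other palmitate libraries. Filled points use the counts as deposited and open points the values with the GC and length trend removed: replicates 1 and 2 lie near 0.9, and replicate 3 at 0.099 and 0.420.

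The median transcript length was 2800 bases in genes that rose, 4226.5 in genes that fell and 3353 over all genes tested, and the median GC content was 52.1%, 49.8% and 49.8%. The part of the length and GC trends of the palmitate libraries in these differences was not tested. Of the 173 genes that rose 68 were in at least 1 list, and of the 102 that fell 14. Some called genes also lay near each other. In the 13 pairs of called genes under 100000 bases apart, both members changed the same way, 6 pairs up and 7 down, of which 2 pairs overlap. Genes that were not called may lie between the members, and 1 gene is in 2 of the pairs. Among 9914 pairs of adjacent tested genes, called or not, 54.7% shared a sign, which is not a like comparison. Whether called genes lay near each other more often than other genes was not tested. Kank3, 28948 bases from Angptl4 on chromosome 17, rose from 30.8, 29.5 and 25.2 CPM to 56.8, 46.5 and 42.9 CPM (0.80 ± 0.11, edgeR adjusted p = 0.00174) and kept its call. Klf11 and Rrm2, Mif and Chchd10, and Acot2 and Acot1 were other pairs that rose, and Prom2 and Mal, Ifi202b and Ifi205, and Odf3l1 and Cspg4 pairs that fell.

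The levels in flat cultures with palmitate are given for comparison only, since no flat culture without palmitate was analysed here and those libraries differ in growth form. The mean level of Plin2 there was 248 ± 7.18 CPM (SD, n = 3) and that of Angptl4 5.95 ± 0.442 CPM, whereas Bpifb4 was at 0.0489, Dsg3 at 0.245, Ace at 1.14 and Tslp at 14.2 CPM.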

How the data were processed

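Poly(A) RNA of 9 4T1 libraries was sequenced as 50-base single reads. The authors trimmed with fastq-mcf, checked quality in FastQC 0.11.9, aligned reads to GRCm38 with HISAT2 2.1.0 and deposited raw HTSeq read counts per gene. The annotation release and strand setting are not given in the sources used here, so overlapping genes and near-identical paralogs are uncertain. The table held 24421 genes, each row a gene, and no mitochondrially encoded gene of the 15 listed was analysed here.

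Counts of all 9 libraries were filtered with filterByExpr, scaled by TMM and fitted with condition as the only term in edgeR 4.0.16 (R 4.3.3; quasi-likelihood test, Benjamini-Hochberg adjusted p under 0.05). The standard error is the absolute log2 fold change over the square root of F. CPM are counts per 1000000 of the TMM-scaled library. With 3 against 3 libraries an exact permutation test of 1 gene cannot go below p = 0.1, so none was used. Standard errors cover counting and replicate error together, and 6595514 counts in the smallest library limit genes with few counts. No libraries of a group were identical (chi-square per gene 3.89 to 19.7). GC content and length came from GENCODE transcripts of the same build, and promoters and coordinates from RefSeq GRCm38.p6. The procedure was also run on counts simulated from the means, dispersions and totals of these libraries. That simulation held no GC or length trend and no library set apart from its group, so it does not bear on those.

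The comparison, the gene lists and the rule were chosen with earlier results of these data known, and the list of ribosome biogenesis after the present results. Named were the 12 called genes each way with the smallest p and no overlap. The 8 called genes each way with the largest fold at a mean of at least 1 CPM were added. Up to 4 called members per list and direction were taken (for lists with fewer than 2, the nearest 2). Also named were set genes of the study, the cell type markers, genes in which replicate 3 was nearest or farthest and genes whose call 1 library decides. Genes with Gm or Rik symbols were counted only, with Gm14023 named because it overlaps Il1a. Some genes that the rule takes are not reported here. Other genes, such as further called list members, neighbours and comparison genes like Hspa5 and Vegfa, were chosen after their values were seen. Alternatives were RLE scaling, library size alone, no filter or at least 10 counts everywhere, the 6 spheroid libraries alone, a replicate block, DESeq2 1.42.0, limma 3.58.1 voom with and without sample weights, thinning, the Rn45s share as a covariate, removal of GC and length trends, a minimum change of 0.5 and each library left out.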

Additional observations from a re-analysis of the deposited data

How the results depend on the processing

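Of 275 genes called, 33 higher and 20 lower kept their call with every spheroid library left out in turn. Leaving out 1 library gave 71 to 1901 calls in all, 42 to 1095 higher and 27 to 806 lower, the highest without palmitate replicate 3. Without it the 6 spheroid libraries alone gave 1968 (1034 higher, 934 lower), and with GC and length trends removed 1970 (1185 and 785). With all spheroid libraries, the spheroids alone gave 77 calls (43 and 34), thinning to the smallest total 113 (60 and 53), the Rn45s share as a covariate 50 (29 and 21), a minimum log2 fold change of 0.5 119 (78 and 41) and DESeq2 on 6 libraries 182 (102 and 80). No filter gave 617 calls (325 and 292), removal of GC and length trends 978 (586 and 392) and voom with sample weights 2687 (1433 and 1254). DESeq2 on all libraries called 157 lower genes, and library size alone 106 higher. The causes were not tested. RLE scaling, the stricter filter and plain voom stayed within 1.5 times (259, 233 and 292 calls).

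With the replicate number as a block, 111 genes were called (73 higher, 38 lower), 109 of them among the 275. Same-numbered libraries deviated together with correlations of only -0.24 to 0.15, so the numbers were not taken to pair the samples.

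Sign changes were seen in genes not called. With 1 library left out, the log2 fold change of Rela ran from -0.029 (without palmitate replicate 1) to 0.14 and that of Scd1 from -0.15 to 0.17. Scd1 was at -0.14 with voom sample weights, -0.024 after thinning, and -0.065 and -0.069 without palmitate replicate 3 in all libraries and in the spheroids alone. No called gene named in the text changed sign. The median position of replicate 3 in genes called without it was 0.099, with 0.101 under RLE scaling, 0.069 with 5 spheroid libraries alone and 0.420 with GC and length trends removed.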

Other observations

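Genes outside the lists and the rule, named after their values were seen, add to both directions. Gpnmb, a lysosomal glycoprotein, rose from 23.95, 17.96 and 19.9 CPM to 34.7, 34.4 and 30.6 CPM (0.70 ± 0.10, edgeR adjusted p = 0.00233), and Nrg1, a ligand of the ERBB receptors, from 6.28, 5.30 and 5.59 CPM to 8.87, 10.6 and 11.3 CPM (0.79 ± 0.13, edgeR adjusted p = 0.00667). The RNA-binding protein gene Igf2bp1 rose by 0.75 ± 0.12 and the glutaminase gene Gls2 by 0.74 ± 0.13. Ddit4l, a relative of the mTORC1 inhibitor Ddit4, had a fitted log2 fold change of 2.34 from 2, 2 and 3 counts without palmitate and 15, 9 and 7 with it.

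S100a14, a calcium-binding protein of epithelia, fell from 15.2, 14.02 and 14.3 CPM to 8.54, 9.27 and 7.96 CPM (-0.75 ± 0.12, edgeR adjusted p = 0.00525) and kept its call whichever spheroid library was left out. The ion pump regulator gene Fxyd3 (-0.66 ± 0.13) and the matrix Gla protein gene Mgp (-0.41 ± 0.09) fell too, and neither kept their call.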
